A study of Mus musculus with 65 samples.

Results

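The 6 retinoid receptor genes of the mouse, Rara, Rarb and Rarg (the retinoic acid receptors) and Rxra, Rxrb and Rxrg (the retinoid X receptors), were followed through retinoic acid differentiation of embryonic stem cells. They were chosen by symbol, as all 6 members of these families, among 24465 symbols in the RNA count files, and all 6 passed the filter on low counts in the fits of both sequencing years. In 2019 Rarb passed through days 3 and 6 and Rxrg through day 0, the days on which they were higher. Their chromatin was read from 9 of 10491 regions in the H3K27me3 table, 10 of 14812 in the H3.3 table, 0 of 6618 in the H3 table, and from the peaks of 16 ChIP-seq libraries.

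Day 6 cells were embryoid bodies, aggregates of differentiating cells grown under rotation with 10 µM all-trans retinoic acid and without leukaemia inhibitory factor (LIF), and day 3 cells came from the same treatment. Day 0 cells were undifferentiated stem cells kept in serum with LIF, which blocks differentiation. RNA of wild-type cells was sequenced in 2019 at days 0, 3 and 6, with 2 libraries each. RNA of an H3.3A knockout line, an H3.3K27A line and wild-type cells was sequenced in 2020 at days 6 and 0, in pairs of libraries apart from wild type at day 0, which has 1. Both edited lines were made with CRISPR/Cas9, and the labels do not say whether each is 1 clone. H3.3 is the histone H3 variant placed in chromatin outside replication, and in K27A an alanine replaces the lysine that Polycomb repressive complex 2 methylates. Chromatin came from wild-type cells alone, at days 6 and 0, in biological duplicates with antibodies to H3K27me3, H3.3K27me3, H3.3 and H3. Whether RNA duplicates came from separate cultures is not stated, so p-values take in only the spread among these libraries, which may be technical.

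Retinoic acid enters the nucleus and binds a RAR, which works as a heterodimer with an RXR on DNA. In stem cells Rarb is known as a direct target of the RARs, through a repeat near the start of its beta2 transcript. The preferred sites are direct repeats of a hexamer half-site, most often spaced by 5 or 2 bases. Without ligand the dimer holds corepressors, and with ligand it exchanges them for coactivators. RXRs also pair with many other nuclear receptors, so they serve more pathways than the RARs do.

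In mm10, Rara lies at chr11:98937696-98974942 and Rxra at chr2:27677201-27763319, both on the plus strand, as do Rxrb at chr17:34031812-34038403 and Rxrg at chr1:167598362-167639623. Rarb at chr14:16430839-17082331 and Rarg at chr15:102234938-102257522 lie on the minus strand. Rarb is by far the longest at 651.5 kb, with a far start for its beta1 and beta3 transcripts and a near one for beta2 and beta4, and Rxrb the shortest at 6.6 kb. No annotated gene shares exon bases with any of the 6.

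H3K27me3, the mark of Polycomb repression, and H3.3 changed over the starts of several receptor genes, and promoter sequence is shown first for those starts. The sequences are RefSeq windows of GRCm38.p6 (the same build as the mm10 coordinates of the files) from 250 bases before to 50 after a transcript start, written 5′ to 3′ along the gene. The table held 13 such windows for the 6 genes. It held none for the beta1 and beta3 start of Rarb, the Rara start at chr11:98960471 or the Rxra start at chr2:27710583, so these were not searched. Direct repeats with 1, 2 or 5 bases between half-sites (DR1, DR2 and DR5) were searched on both strands. The half-sites allowed were AGGTCA and AGGTGA, then AGTTCA and AGTTGA, further GGGTCA and GGGTGA, and last GGTTCA and GGTTGA. Of the 13 receptor windows 2 held a repeat, and both repeats lay on the gene's own strand without overlapping another match. Among all 32851 promoter windows of the table, 0.323% held a DR5, 0.472% a DR2 and 0.609% a DR1, and 1.39% held any of them. The window of the Rarb beta2 start held a DR5, from 53 to 37 bases before the start, and the window of the internal Rxrg start held a DR1, from 95 to 83 bases before it. These matches describe letters and not occupied sites. In the pair of sequences below, capitals mark the half-sites, the first on the minus strand at chr14:16575427-16575726 and the second on the plus strand at chr1:167618015-167618314.
Rarb beta2 start: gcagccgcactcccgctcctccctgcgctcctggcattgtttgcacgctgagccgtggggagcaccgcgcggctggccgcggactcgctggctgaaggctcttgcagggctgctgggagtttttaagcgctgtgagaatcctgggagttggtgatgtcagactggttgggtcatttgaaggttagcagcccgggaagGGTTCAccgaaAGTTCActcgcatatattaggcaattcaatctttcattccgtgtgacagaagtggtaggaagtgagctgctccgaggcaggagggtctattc
Rxrg internal start: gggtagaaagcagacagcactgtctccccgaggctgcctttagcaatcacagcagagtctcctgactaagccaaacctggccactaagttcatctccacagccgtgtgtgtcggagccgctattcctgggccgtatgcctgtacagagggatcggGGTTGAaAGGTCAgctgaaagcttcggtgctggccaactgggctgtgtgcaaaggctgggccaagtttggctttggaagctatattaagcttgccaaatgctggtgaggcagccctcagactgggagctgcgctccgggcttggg

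Polycomb marks are known to gather at promoters rich in CpG, so the 3 starts with an H3K27me3 peak in both duplicates of a day are shown with each CpG in capitals. They are the first Rxra start on the plus strand at chr2:27676951-27677250, the upstream Rarg start on the minus strand at chr15:102257473-102257772, and the first Rxrg start on the plus strand at chr1:167598112-167598411. Their CpG counts were 55, 12 and 13, and their GC contents 83%, 70% and 53.7%, against a median GC content of 52.7% over all promoter windows. The ratio of observed to expected CpG was 1.08 at Rxra, 0.34 at Rarg and 0.6 at Rxrg, against a median of 0.38. The Rxra start was thus the densest in CpG of the 3, and the Rarg start was rich in G and C without being dense in CpG. Starts without such peaks were dense as well. Both Rxrb windows had ratios of 1.05 and 0.94, and no Rxrb start had an H3K27me3 peak in any library. The Rarb beta2 window had 0.7 and lacked a peak in both duplicates of a day.
Rxra first start: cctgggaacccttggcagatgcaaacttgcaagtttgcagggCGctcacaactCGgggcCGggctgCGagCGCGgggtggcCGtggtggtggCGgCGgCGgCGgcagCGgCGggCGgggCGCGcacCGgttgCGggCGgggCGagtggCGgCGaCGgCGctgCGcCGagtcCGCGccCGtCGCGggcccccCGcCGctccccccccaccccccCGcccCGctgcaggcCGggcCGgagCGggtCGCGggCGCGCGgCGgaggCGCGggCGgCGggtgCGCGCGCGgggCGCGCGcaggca
Rarg upstream start: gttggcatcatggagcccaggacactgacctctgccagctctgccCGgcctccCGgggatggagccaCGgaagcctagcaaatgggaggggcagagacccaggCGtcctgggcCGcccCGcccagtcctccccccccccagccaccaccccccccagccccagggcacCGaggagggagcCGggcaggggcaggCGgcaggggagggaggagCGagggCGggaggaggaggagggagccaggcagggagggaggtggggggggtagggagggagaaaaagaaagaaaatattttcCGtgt
Rxrg first start: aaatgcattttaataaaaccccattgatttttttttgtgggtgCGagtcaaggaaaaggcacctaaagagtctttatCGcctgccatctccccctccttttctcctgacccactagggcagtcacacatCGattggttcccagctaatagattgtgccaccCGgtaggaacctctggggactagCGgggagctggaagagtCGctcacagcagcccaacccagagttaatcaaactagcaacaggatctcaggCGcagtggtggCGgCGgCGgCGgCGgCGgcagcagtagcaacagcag

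The RNA libraries held 6965704 to 12711698 gene counts in 2019 and 14270549 to 22032871 in 2020. Counts that fell in no annotated feature made up 25.74 to 43.29% of the 2019 totals and 11.32 to 16.78% of those of 2020, so levels are compared within a year. Stem cell markers fell as a group at day 6, with a summed level of 142 to 250 CPM, counts per 1000000 counts of the library after TMM scaling, over 8 genes in the day 6 groups of both years, against 5320 to 7210 CPM at day 0. H3f3a, the gene encoding H3.3A, averaged 22 CPM at days 6 and 0 of the knockout. Levels of 20.4 and 23.1 CPM were found for H3.3K27A, and of 116 and 129 CPM for wild type of 2020. The H3.3K27A label does not name the edited gene. H3f3a RNA was about as low in H3.3K27A as in the knockout. In comparisons of H3.3K27A with wild type, K27A and less H3f3a RNA thus cannot be told apart. The duplicates of the knockout at day 6 stood apart from each other, with a chi-square per degree of freedom of 47 over 13490 genes, against 2.3 to 8.32 in the other 7 pairs. Their summed levels of 8 markers ranged from 262 to 605 CPM for neural cells and from 1660 to 2550 CPM for primitive and visceral endoderm. Receptor calls that rest on that pair are given with and without each of its libraries. The ChIP libraries held 30449762 to 74229689 tags.

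Rarb showed the largest change of the 6 genes. This receptor is known for its induction by its own ligand. In the wild type of 2019 it had 2 and 3 counts at day 0, 1391 and 1558 at day 3, and 2358 and 1769 at day 6, which is 0.321 and 0.281, 113 and 117, and 174 and 162 CPM. The groups did not overlap, and day 3 already stood near the day 6 level. The log2 change of day 6 against day 0 was 9.10 ± 0.18 (approximate standard error; adjusted p = 5.01e-13, from edgeR's quasi-likelihood test adjusted by Benjamini and Hochberg's method, as for all RNA values here). With 5 counts at day 0 the standard error is too small: the ratio of summed counts per library size was 570, with a 95% counting interval of 244 to 1760. Most of the change had taken place by day 3 (8.55 ± 0.18, edgeR adjusted p = 1.82e-12), and from day 3 on Rarb rose by a further 0.55 ± 0.07 (edgeR adjusted p = 3.07e-05).

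Rarg, the receptor best represented in undifferentiated cells, moved the other way. It had 253 and 262 CPM at day 0, 94.2 and 96.7 CPM at day 3 and 35.4 and 41.7 CPM at day 6. Each day lay below the one before it in both libraries. The log2 change was −1.43 ± 0.08 at day 3 against day 0 (edgeR adjusted p = 6.31e-09), −1.31 ± 0.09 at day 6 against day 3 (edgeR adjusted p = 6.63e-08) and −2.75 ± 0.09 over the 6 days (edgeR adjusted p = 2.01e-11).

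Rara, the most widely expressed RAR, changed little. Its levels were 98.2 and 110 CPM at day 0, 89 and 92.2 CPM at day 3, and 120 and 115 CPM at day 6. The day 6 values lay above both earlier groups by a small margin, and the change against day 0 did not pass the test (0.17 ± 0.08, edgeR adjusted p = 0.0627). It passed without replicate 2 of day 0 (0.25, edgeR adjusted p = 0.00635). Against day 0, day 3 was lower by the test (−0.20 ± 0.08, edgeR adjusted p = 0.0332), a call that is lost without replicate 2 of day 0 (−0.12, edgeR adjusted p = 0.209) or without either day 3 library (edgeR adjusted p = 0.196 and 0.118). Day 6 was higher than day 3 (0.37 ± 0.08, edgeR adjusted p = 0.00112).

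Among the obligate partners, Rxra rose at each step. Rxra, the RXR with the broadest roles in development, had 27.8 and 28.2 CPM at day 0, 60.6 and 56.8 CPM at day 3 and 128 and 131 CPM at day 6. Its log2 change was 1.07 ± 0.09 at day 3 against day 0 (edgeR adjusted p = 2.63e-07), 1.15 ± 0.07 at day 6 against day 3 (edgeR adjusted p = 6.43e-08), and 2.21 ± 0.09 over the 6 days (edgeR adjusted p = 1.2e-10). The 3 days did not overlap, and the rise was spread evenly over both intervals, unlike the early rise of Rarb.

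Rxrb, a widely expressed partner, had 96.6 and 108 CPM at day 0, 80 and 76.5 CPM at day 3 and 87.1 and 91 CPM at day 6. It was lower at day 3 than at day 0 (−0.40 ± 0.08, edgeR adjusted p = 0.000765), and day 6 against day 3 did not pass (0.19 ± 0.08, edgeR adjusted p = 0.0628). The smaller change at day 6 against day 0 (−0.21 ± 0.08, edgeR adjusted p = 0.0309) was lost without replicate 2 of day 0 (−0.13, edgeR adjusted p = 0.185) and without either day 6 library (edgeR adjusted p = 0.202 and 0.0862). Rxrg, the RXR of muscle and parts of the brain, was close to silent, with 9 and 17 counts at day 0, 3 and 5 at day 3, and 7 and 6 at day 6. Its log2 change of −1.51 ± 0.47 over the 6 days (edgeR adjusted p = 0.00997) corresponds to 0.345 times the day 0 level by summed counts (0.163 to 0.696, 95% counting interval). It was lost without replicate 2 of day 0 (edgeR adjusted p = 0.0899) or without replicate 1 of day 6 (edgeR adjusted p = 0.0649). In bulk RNA, fewer cells expressing a receptor and less RNA per cell cannot be told apart.

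In all, 5 of the 6 receptors were called at day 6 against day 0 in 2019, 2 higher and 3 lower, where 78% of all 13593 genes tested were called, 41.4% higher and 36.6% lower. At day 3 against day 0 all 6 were called, 2 higher and 4 lower, against 71.4% of all genes, 37.6% higher and 33.8% lower. At day 6 against day 3 there were 4, 3 higher and 1 lower, against 57.3%, of which 29.4% were higher and 27.9% lower. A call was common in these comparisons. Rarb and Rxrg passed the filter on low counts through the days on which they are higher, so their tests against day 0 are not independent of that. In the authors' deposited table of day 6 against day 0, the log2 changes were 8.57 for Rarb, −2.79 for Rarg, 2.11 for Rxra, −1.69 for Rxrg, −0.26 for Rxrb and 0.13 for Rara, with an adjusted p of 0.242 for Rara alone above 0.05.

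**Figure D1:**
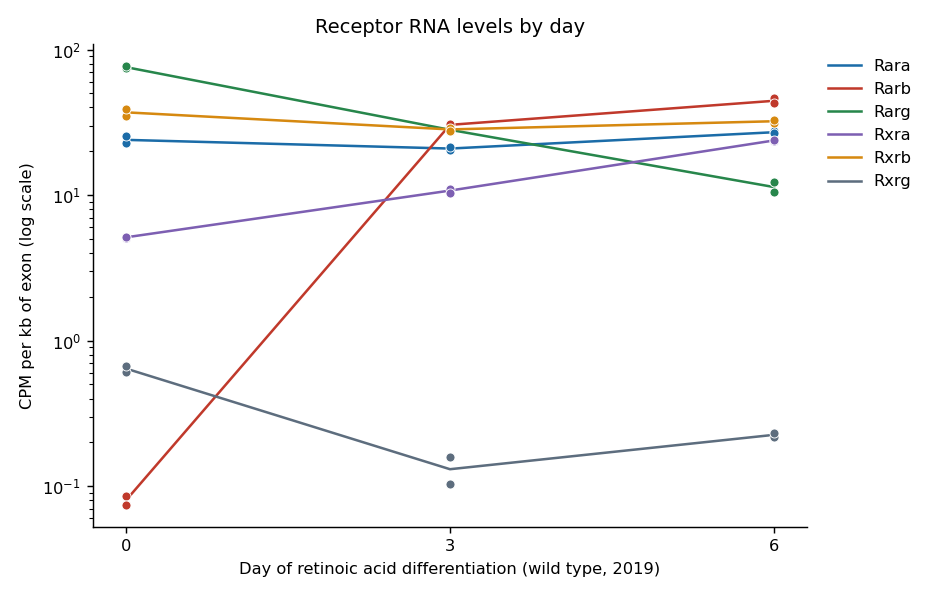
RNA level of each receptor in wild-type cells of 2019 (CPM per kb of exon, log axis) at days 0, 3 and 6. Points are the 2 libraries of each day and lines join their means, with Rarb crossing from the lowest level at day 0 to the highest at days 3 and 6.

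Levels were compared between genes per kb of exon, on the CPM scale of each library. In 2019 Rarg was highest at day 0 with 75.8 ± 2.01 CPM per kb (mean ± SD, n = 2), followed by Rxrb (37 ± 3.02), Rara (24 ± 1.88), Rxra (5.12 ± 0.05), Rxrg (0.643 ± 0.044) and Rarb (0.0798 ± 0.0075). No neighbours in that order overlapped in their ranges. At day 3 Rarb (30.4 ± 0.81) led, and Rxrb (28.3 ± 0.89) and Rarg (28.1 ± 0.53) overlapped. At day 6 the order was Rarb (44.5 ± 2.32), Rxrb (32.2 ± 0.98), Rara (27 ± 0.7), Rxra (23.8 ± 0.36), Rarg (11.4 ± 1.3) and Rxrg (0.225 ± 0.0095), again with no overlap between neighbours. Taken per kb of coding sequence instead, Rarg still led at day 0 with 187 CPM per kb and Rarb at day 6 with 116 CPM per kb. Rxrb, whose coding sequence is a larger part of its exons, had rank 4 in place of 2 at day 6 on that scale.

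The make-up of the RAR pool turned over while its sum changed less. The 3 RARs together came to 97.1 and 103 CPM per kb at day 0, 78 and 80.7 at day 3, and 84.1 and 81.6 at day 6 in 2019. At day 0 Rarg made up 76.6 and 75.3% of that sum and Rarb 0.088 and 0.073%. Day 3 libraries held 35.5 and 35.3% Rarg beside 38.2 and 38.4% Rarb, and day 6 libraries 12.4 and 15% Rarg beside 54.8 and 52.5% Rarb. Of the RXR sum, Rxrb made up 86 and 87% at day 0, 72.1 and 72.4% at day 3, and 57 and 57.6% at day 6. Rxra took most of the rest, at 12.5 and 11.5%, 27.7 and 27.2%, and 42.6 and 42% on the same days. Rxrg stayed at or below 1.51% in every 2019 library.

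**Figure D2:**
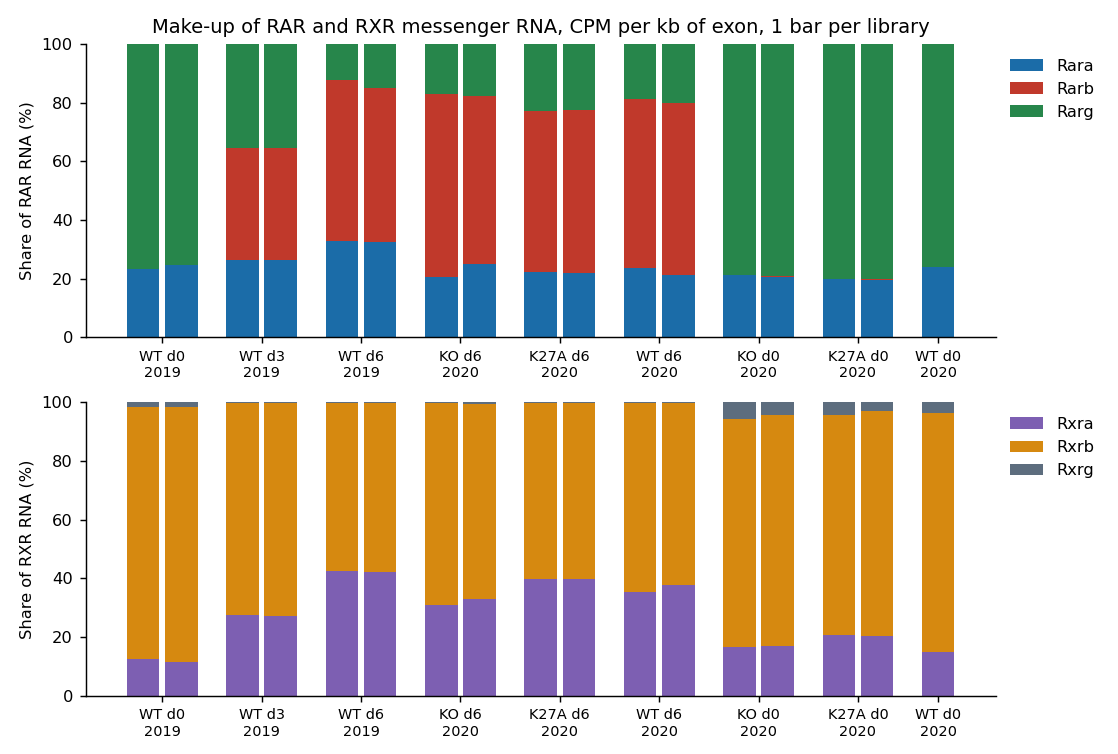
Share of each gene in the RAR sum (top) and in the RXR sum (bottom), from CPM per kb of exon, with 1 bar per library in the 9 RNA groups (d, day). Green Rarg fills most of each day 0 bar and red Rarb more than any other RAR of each day 6 bar, while purple Rxra widens at the cost of Rxrb.

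Both edited lines were set against wild type in 2020, first for the change over 6 days in each line. Rarb had 4478 and 4154 counts at day 6 in the knockout, against 13 and 19 at day 0. In H3.3K27A it had 5289 and 4199 counts at day 6, against 20 and 19 at day 0. In wild type it had 5517 and 5374 counts at day 6, against 17 in the single day 0 library. The ratio of summed counts per library size, day 6 over day 0, was 218 in the knockout (95% counting interval 154 to 319), 144 in H3.3K27A (106 to 203) and 239 in wild type (149 to 411). These intervals overlap but cover counting error only, so their overlap is no test of a difference. Against wild type, the log2 change of Rarb differed by −0.12 in the knockout and −0.73 in H3.3K27A. In H3.3K27A against the knockout it differed by −0.61, and none of these differences was called.

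Rarg fell in all 3 lines, with log2 changes of −2.72 ± 0.10 in the knockout, −2.495 ± 0.094 in H3.3K27A and −2.40 ± 0.11 in wild type, and edgeR adjusted p-values of 1.1e-08, 1.51e-08 and 6.93e-08. Knockout libraries had 57.1 and 51.3 CPM of Rarg at day 6, against 365 and 350 CPM at day 0. H3.3K27A libraries had 77.8 and 75.5 CPM, against 434 and 431 CPM, and wild type 61.5 and 72.6 CPM, against 353 CPM. No day 6 library came near a day 0 library. Rxra rose by 0.93 ± 0.09 in the knockout, 1.15 ± 0.08 in H3.3K27A and 1.28 ± 0.11 in wild type (edgeR adjusted p = 4.76e-06, 1.03e-06 and 4.21e-06). Rara fell in all 3, with log2 changes of −0.42 ± 0.07, −0.50 ± 0.07 and −0.52 ± 0.09 (edgeR adjusted p = 0.000428, 0.00012 and 0.000377). Rxrg fell in all 3 as well, with 5 and 11 counts at day 6 in the knockout against 81 and 70 at day 0, 8 and 7 in H3.3K27A against 57 and 35, and 6 and 5 in wild type against 64. Rxrb moved least, with log2 changes of −0.20 ± 0.08, −0.16 ± 0.08 and −0.36 ± 0.10 (edgeR adjusted p = 0.0406, 0.0975 and 0.00715). In a fit of both years the wild-type change differed between 2020 and 2019 for 3 of 6 receptors, Rara, Rxra and Rxrg, where 33% of genes differed. Without either knockout library of day 6 all 6 knockout calls held, with log2 changes of −2.82 and −2.64 for Rarg, 0.98 and 0.86 for Rxra, −0.40 and −0.45 for Rara and −0.22 and −0.20 for Rxrb. The knockout call for Rxrb is lost without replicate 1 of day 0 (−0.15, edgeR adjusted p = 0.201). It is also lost with DESeq2 (adjusted p = 0.0761) and, in edgeR, without the filter, with a replicate block or with only the groups compared (edgeR adjusted p = 0.103, 0.0625 and 0.153).

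At day 6 against day 0, 6 of 6 receptors were called in the knockout, 5 of 6 in H3.3K27A and 6 of 6 in wild type, where 77.2%, 76.7% and 70.8% of 14760 genes were called. None of the 6 changes differed between lines by the interaction test, which called 0 of 6 in each of 3 comparisons. Backgrounds were 0.0813% for the knockout against wild type, 0.766% for H3.3K27A against wild type and 5.39% for H3.3K27A against the knockout. At an unadjusted p under 0.05 the knockout comparison with wild type held 2, Rarg (−0.32 ± 0.14, edgeR adjusted p = 0.407) and Rxra (−0.35 ± 0.13, edgeR adjusted p = 0.358), and DESeq2 called none. The other comparisons held none at that level. Without replicate 2 of the knockout at day 6, Rxra passed (−0.42, edgeR adjusted p = 0.032).

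Levels were then compared between lines at the same day. The knockout differed from wild type in 0 of 6 receptors at day 6 and 0 of 6 at day 0, where 11.4% and 0.122% of genes were called. At an unadjusted p under 0.05 there were 2 at day 6 and 1 at day 0, and DESeq2 called 1 at day 6, Rarg, and 0 at day 0. The nearest at day 6 were Rarg (−0.31 ± 0.09, edgeR adjusted p = 0.0599) and Rxra (−0.26 ± 0.08, edgeR adjusted p = 0.075). These rest on the pair that stood apart. Without its replicate 1, Rarg (−0.41, edgeR adjusted p = 0.00771) and Rarb (−0.31, edgeR adjusted p = 0.014) were called lower in the knockout, and without its replicate 2 Rxra was (−0.33, edgeR adjusted p = 0.00657).

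H3.3K27A also differed from wild type in 0 of 6 receptors at day 6 and 0 of 6 at day 0, where 2.04% and 1.73% of genes were called. DESeq2 also called 0 on both days, and 1 and 2 receptors stood at an unadjusted p under 0.05. Rxra was nearest on both days, with 101 and 98 CPM in H3.3K27A at day 6 against 77.4 and 82 CPM in wild type, and 43.4 and 46.3 CPM at day 0 against 32.8 CPM. At day 6 the groups did not overlap, and at day 0 both H3.3K27A libraries lay above the single wild-type library. The log2 differences were 0.32 ± 0.08 (edgeR adjusted p = 0.0817) and 0.45 ± 0.11 (edgeR adjusted p = 0.0809). With the fit restricted to the groups compared, both passed (edgeR adjusted p = 0.00667 at day 6 and 0.00574 at day 0), and so did Rarg at day 0 (0.31, edgeR adjusted p = 0.0231). At day 0 that fit holds 2 H3.3K27A libraries and 1 of wild type, which is assumed to vary like the pair.

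H3.3K27A set against the knockout gave the only calls between lines. At day 6 Rxra (0.58 ± 0.08, edgeR adjusted p = 0.00162) and Rarg (0.50 ± 0.09, edgeR adjusted p = 0.00579) were higher in H3.3K27A, 2 of 6 where 18.7% of all genes were called and 9.03% were called higher. Rxra had 101 and 98 CPM in H3.3K27A, against 63.6 and 69.9 CPM in the knockout, without overlap. Rarg did not overlap either, with 77.8 and 75.5 CPM in H3.3K27A against 57.1 and 51.3 CPM in the knockout. Both calls held without replicate 1 of the knockout (0.53 for Rxra and 0.60 for Rarg, edgeR adjusted p = 0.000238 and 0.000229) and without its replicate 2 (0.65 and 0.42, edgeR adjusted p = 2.74e-05 and 0.0022). With the fit restricted to these 4 libraries neither passed (edgeR adjusted p = 0.0602 and 0.074), and without replicate 1 of H3.3K27A Rarg did not (0.48, edgeR adjusted p = 0.064). Endoderm marker sums were lower in this comparison, at 846 to 982 CPM in H3.3K27A against 1660 to 2550 CPM in the knockout (7 of 8 markers called lower). Neural sums overlapped, at 244 to 308 CPM against 262 to 605 CPM (1 of 8 called lower). The part of these cell types in the result was not tested. At day 0 none of the 6 was called against a background of 1.27%, with Rxra nearest (0.36 ± 0.09, edgeR adjusted p = 0.0974), 3 receptors at an unadjusted p under 0.05 and 0 called by DESeq2.

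**Figure D3:**
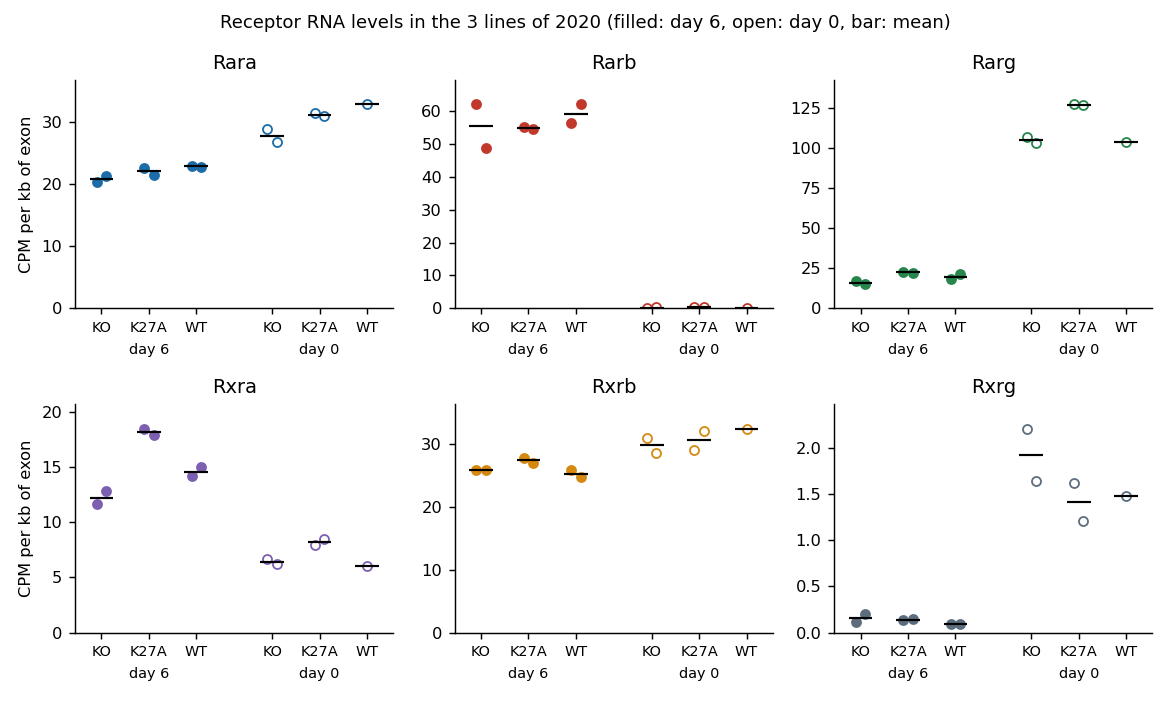
RNA level of each receptor (CPM per kb of exon, axes from 0) in the H3.3A knockout (KO), H3.3K27A (K27A) and wild type (WT) of 2020, with filled points for day 6 and open points for day 0. Points are libraries and bars their means; the separation between days exceeds that between lines for Rarb, Rarg and Rxrg.

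The genes around the receptors were read from lists of the pathway. Of the cytosolic and enzymatic side, 13 of the 14 genes of retinoid metabolism and binding passed the filter on low counts, and at day 6 against day 0 of 2019 all 13 were called higher, where 41.4% of all genes were, with a median log2 change of 5.71 over those tested against 0.09 over all genes. Cyp26a1 and Cyp26b1, which break down retinoic acid, had 763 and 730 CPM and 630 and 593 CPM at day 6, against 1.93 and 0.75 CPM and 1.13 and 0.469 CPM at day 0. Dhrs3, a retinaldehyde reductase, had 5.69 and 6.58 CPM at day 6 and no count at day 0. Aldh1a1, a retinaldehyde dehydrogenase that makes retinoic acid, had 4.65 and 3.57 CPM at day 6 and no count at day 0. In 2020, 11 of 13 rose in the knockout, 12 in H3.3K27A and 10 in wild type, and none fell, where 40.8%, 39.5% and 36% of all genes rose and 36.4%, 37.2% and 34.8% fell. Genes that were undetected in both states were removed by the filter, so these counts do not speak for them. Genes with no count at day 0, such as Dhrs3 and Aldh1a1, passed it through later days and could only be called higher. Cyp26a1 and Cyp26b1, low at day 0, also passed it through later days. The share of all genes is no like measure for them.

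Of 16 known targets of the RARs other than the receptors, 15 were tested in 2019. At day 6 against day 0, 13 rose and 1 fell (median log2 change 6.81), where 41.4% of all genes rose and 36.6% fell. In 2020, 13 rose and 2 fell in each line, where 36 to 40.8% of all genes rose and 34.8 to 37.2% fell. Hoxb4, Hoxa4 and Hoxd4, homeobox genes of the hindbrain and trunk, had 137 and 123, 71.3 and 69.4, and 79.7 and 70.2 CPM at day 6, against 0.964 and 0.187, 0.161 and 0.187, and 0 and 0.187 CPM at day 0. Nr2f1, an orphan nuclear receptor of the COUP-TF family, had 22.4 and 24 CPM at day 6 and no count at day 0. Targets with no or few counts at day 0, among them Hoxb4, Hoxa4, Hoxd4 and Nr2f1, passed the filter through later days. They could hardly be called lower, so the share of all genes is no like measure for them.

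Coregulators moved far less than the targets. Of 8 coactivator genes tested of 9, 4 rose and 1 fell in 2019, and of 5 corepressor genes tested of 8, 2 rose and 2 fell. These shares lie near those of all genes, 41.4% of which rose and 36.6% of which fell, so they are no result about the coregulators. Ncoa2, a p160 coactivator, averaged 138 CPM at day 6 and 54 CPM at day 0 (1.34 ± 0.10, edgeR adjusted p = 4.96e-08), and Ncoa6 151 and 59.6 CPM (1.32 ± 0.11, edgeR adjusted p = 2e-07). Ncoa3, another p160 coactivator, fell to 194 CPM at day 6, against 349 CPM at day 0 (−0.85 ± 0.07, edgeR adjusted p = 1.82e-07). Crebbp, a histone acetyltransferase, was higher at day 6 (0.71 ± 0.16, edgeR adjusted p = 0.00119). Of the corepressors, Ncor1 fell by 0.26 ± 0.09 (edgeR adjusted p = 0.0145). Tbl1x and Tbl1xr1, subunits of corepressor complexes, changed by 0.45 ± 0.08 and −0.30 ± 0.08 (edgeR adjusted p = 0.000143 and 0.0037). In wild type of 2020, 2 of 8 coactivators rose and 3 fell, and of 7 corepressors none rose and 2 fell, where 36% of all genes rose and 34.8% fell.

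The other partners that RXR takes changed in both directions, 5 higher and 2 lower of 9 tested of 13 in 2019, near the 78% of all genes that were called. Pparg, Vdr and Ppara, the receptors for fatty acid ligands and vitamin D, stayed at low levels of 5.21, 2.86 and 3.86 CPM at day 6, against 0.0469, 0.234 and 0.462 CPM at day 0. Pparg, Vdr and Ppara passed the filter on low counts through later days and could hardly be called lower. The share of all genes is no like measure for them. Nr4a1, which can pair with RXR in the absence of a ligand of its own, fell to 4.16 CPM at day 6, against 60.2 CPM at day 0 (−3.84 ± 0.14, edgeR adjusted p = 5.25e-11). Of 11 orphan nuclear receptors, 6 rose and 3 fell, also near the share of all genes called. Nr2f2, a COUP-TF that can compete for the same repeats, averaged 363 CPM at day 6 and 0.415 CPM at day 0. Nr2f2 too passed the filter through later days. Esrrb and Nr0b1, both parts of the stem cell network, averaged 22.3 and 1.96 CPM at day 6, and 891 and 177 CPM at day 0. Of the genes named from these lists, 2 differed between H3.3K27A and the knockout at day 6. There 18.7% of all genes were called, so the count is no result about the lists. Cyp26a1 averaged 993 CPM in H3.3K27A and 2090 CPM in the knockout (−1.07 ± 0.32, edgeR adjusted p = 0.0436), and Nr2f2 averaged 411 CPM in H3.3K27A and 236 CPM in the knockout (0.80 ± 0.11, edgeR adjusted p = 0.00158). Both calls held without either knockout library (−0.84 and −1.26 for Cyp26a1, 0.68 and 0.95 for Nr2f2), and that of Cyp26a1 was lost without either H3.3K27A library (edgeR adjusted p = 0.248 and 0.175).

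The genes most like each receptor across the 9 RNA group means, centred within each year, were found by Pearson correlation among 12158 genes for each receptor but Rxrg, where there were 12159. Those of Rarb were Hoxb8, Hoxb2 and Hoxb4 (r of 0.999, 0.999 and 0.998). Rarg ran with Adam23, Exosc5 and Zbtb32 (0.998, 0.997 and 0.997), and Rxra with Pygo1, Fbxl17 and Nfib (0.991, 0.989 and 0.989). For Rxrg they were Smc1a, Myh3 and Cdc25a (0.997, 0.996 and 0.996). Rara and Rxrb, which moved least, gave lower values, with Dck, Pogz and Ago3 (0.978, 0.974 and 0.974) and with Dido1, Tfip11 and Nr1d1 (0.977, 0.975 and 0.973). All points of each correlation come from the same 17 libraries and 9 groups, so these values describe likeness of pattern alone.

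Chromatin at the receptor genes was compared at day 6 against day 0 in wild type. Rxra lost H3K27me3 and Rarg gained it, opposite in direction to their RNA. In the H3K27me3 table the region over the first Rxra start (chr2:27674931-27679841, 4.9 kb) had a deposited signal of 109 and 106 at day 6, against 226 and 301 at day 0. The duplicates of the days did not overlap, and the log2 difference was −1.27 ± 0.13 (limma on log2(signal + 1), adjusted p = 8.32e-20), among 39.4% of 10491 regions called lower. In limma the spread of a region is drawn largely from all regions, so its small p-values rest little on the duplicates of that region. The authors' deposited false discovery rate for this region was 1.25e-09. Filtered peaks at that start were found in both day 0 duplicates, with enrichments of 2.99 and 3.84 over the genome-wide mean as given by the authors, and in neither day 6 duplicate. Before the authors' filter, MACS2 had also listed a peak there in replicate 1 of day 6, with an enrichment of 2.16. Both limits of the region are limits of day 0 peaks and no filtered day 6 peak reaches it, so it is in the table through the day on which it is higher, and its test is not independent of that.

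Over Rarg, an 18.2-kb H3K27me3 region (chr15:102245753-102263938) took in both starts of the gene. Its signal was 550 and 469 at day 6, against 315 and 322 at day 0, a log2 difference of 0.67 ± 0.09 (limma adjusted p = 4.52e-12). The authors' deposited false discovery rate for it was 1.28e-06. Regions called higher were few, 5.56% of the table. Peaks lay over the upstream start in both day 6 duplicates (enrichments 2.3 and 2.46) and in neither day 0 duplicate. Both limits of the region are limits of day 6 peaks and no filtered day 0 peak reaches it, so the same holds here for day 6.

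Rxrg had low RNA at day 0 and less at day 6, with 3.51 and 0.225 CPM in wild type of 2020. It kept H3K27me3 over its first start in all 4 libraries, with peaks of enrichment 3.17 and 2.46 at day 6 and 4.09 and 2.61 at day 0. The 18.9-kb region there (chr1:167591411-167610299) had 545 and 488 at day 6 and 592 and 572 at day 0, a difference that did not pass (−0.17 ± 0.08, limma adjusted p = 0.0797). It passed without replicate 1 of day 6 (−0.25, limma adjusted p = 0.0348). The 17.8-kb region over the internal start (chr1:167617333-167635151) had 414 and 448 at day 6 and 535 and 499 at day 0 and was called lower (−0.26 ± 0.09, limma adjusted p = 0.00797). Only day 0 duplicates have filtered peaks over that region, and both its limits are limits of day 0 peaks, so its test is not independent of that day. That call is lost without replicate 1 of day 0 (−0.21, limma adjusted p = 0.125) or of day 6 (−0.21, limma adjusted p = 0.106), and the authors' deposited table gives it a false discovery rate of 0.0629.

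Rarb, in contrast, had no region of the H3K27me3 table over its 651.5-kb gene. The 2 regions assigned to it by the authors lie upstream, at −84387 and −246274 bases from its start in their annotation, and were not called (−0.08 ± 0.09 and −0.15 ± 0.14, limma adjusted p = 0.48 and 0.423). Peaks of single libraries covered small parts of the gene, 2.8 and 2.7% at day 6 against 1.2 and 0% at day 0. At the beta2 start 1 of 2 day 0 duplicates had a filtered H3K27me3 peak, reaching over 35.7% of the window 2 kb either side, and neither day 6 duplicate did. The other day 0 duplicate had a peak there before the filter, with an enrichment of 2.15. A 10.8-kb region beginning just past the 3′ end of Rara (chr11:98975937-98986725), nearest to Gjd3 in the authors' annotation, fell to 289 and 251 at day 6, against 388 and 374 at day 0 (−0.50 ± 0.10, limma adjusted p = 3.08e-06). A region past the end of Rxrb, nearest to Col11a2, and an intergenic one upstream of Rxrg were not called. In all, 1 of the 9 receptor regions was higher and 3 were lower, where 5.56% and 39.4% of all regions were and 44.9% were called either way. The Rarg, Rxra and internal Rxrg regions among these are in the table through the day on which they are higher.

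H3.3 was higher at day 6 in all 6 regions of its table that reach Rarb. Of these, 5 have filtered peaks in both day 6 duplicates and in neither day 0 duplicate, and limits set by day 6 peaks, so they are in the table through the day on which they are higher and their tests are not independent of that. The 45.4-kb region over the beta2 start (chr14:16533451-16578823), the start whose window holds the DR5, had a signal of 1556 and 1466 at day 6, against 767 and 754 at day 0, a log2 difference of 0.99 ± 0.06 (limma adjusted p = 2.24e-49). The p-value rests on the spread pooled over regions, and the authors' deposited false discovery rate was 1.77e-33. Filtered peaks covered 19.9 and 12.4% of the whole gene at day 6, against 0.8 and 0.3% at day 0. Inside the gene, regions of 17.1, 4.1 and 10.1 kb rose by 0.79 ± 0.09, 0.94 ± 0.15 and 0.90 ± 0.11, with limma adjusted p-values of 1.69e-17, 2.4e-09 and 3.83e-15. A 13.4-kb region just upstream of the beta1 and beta3 start, at −237 bases in the authors' annotation, rose by 0.68 ± 0.09 (limma adjusted p = 1.83e-12), with 466 and 422 at day 6 against 280 and 274 at day 0. The sixth, 94.1 kb long and with peaks in all 4 libraries, spans the 3′ end of Rarb and the neighbouring gene Top2b and rose by 0.45 ± 0.06 (limma adjusted p = 2.48e-14). In none of the 6 did the duplicates of the days overlap, but how many of all regions showed the same was not counted. Of all regions, 18.4% of 14812 regions were called higher and 43.7% lower, with a median log2 difference of −0.12 and 62.1% called either way.

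The other receptors had lower H3.3 signal at day 6 in the regions that reach them. These were broad, at 174.6 kb over Rara (−0.29 ± 0.06, limma adjusted p = 8.65e-07), 469 kb over Rarg (−0.41 ± 0.06, limma adjusted p = 1.51e-10) and 61.9 kb over Rxrb (−0.37 ± 0.06, limma adjusted p = 1.48e-09). They take in neighbouring genes, so the values are not specific to the receptors. A 7.3-kb region upstream of Rxra, at −25834 bases from its start in the authors' annotation, was also lower (−0.36 ± 0.12, limma adjusted p = 0.00506), with a false discovery rate of 0.0632 in the authors' deposited table. No region of the H3.3 table was assigned to Rxrg or reached it. Of the 10 regions, 6 were higher and 4 lower.

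**Figure D4:**
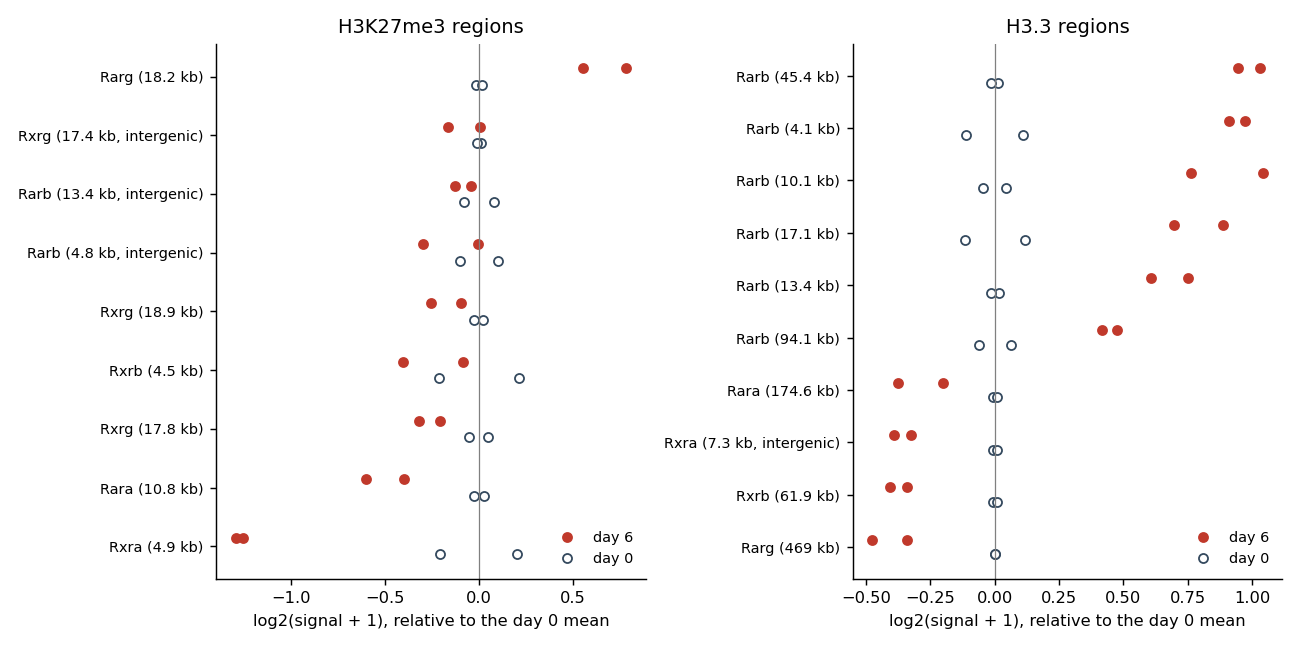
Deposited signal of each receptor region in the H3K27me3 table (left) and the H3.3 table (right), as log2(signal + 1) relative to the mean of day 0 in that region. Filled points are the day 6 duplicates and open points the day 0 duplicates; the 6 Rarb regions stand to the right for H3.3, and the Rarg and Rxra regions mark the ends for H3K27me3.

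Peaks over the start sites were then read as present or absent. A start was counted where both duplicates had a deposited filtered peak within 2 kb of any curated RefSeq start. With H3.3, 3 of 6 receptors were counted at day 6 (Rara, Rarb and Rarg) and 2 at day 0 (Rara and Rarg), where 28% and 40.8% of 21000 genes were counted. The Rarb peaks at the beta2 start covered the whole window in both day 6 duplicates, with enrichments of 3.13 and 2.61, and no day 0 duplicate had one. Rxrb had a filtered H3.3 peak in 1 duplicate of each day. With H3K27me3, 2 of 6 were counted at day 6 (Rarg and Rxrg) and 2 at day 0 (Rxra and Rxrg), against 12.5% and 20.2% of genes.

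The H3.3K27me3 antibody gave no receptor start with a filtered peak in both duplicates, against 3.33% of genes at day 6 and 12.5% at day 0. Its day 6 libraries were the shallowest of all, with 30449762 and 34195568 tags, against 71130843 and 49872422 at day 0. They did not have fewer filtered peaks, with 26215 and 14483 at day 6 against 14796 and 12690 at day 0. Inside the Rarb gene both day 6 duplicates had filtered peaks, over 3.1 and 2.2% of it, against 0 and 3.3% at day 0. At day 0 single duplicates had a filtered peak at the internal Rxrg start (85.9% of the window) and at the beta2 start of Rarb (35.1%). Before the filter, MACS2 had listed peaks in both day 0 duplicates at the first starts of Rxra and Rxrg (enrichments 1.86 and 2.21 at each) and at the internal Rxrg start (2.09 and 2.05). In replicate 1 of day 6 it had listed peaks at the first Rxrg start and the beta1 and beta3 start of Rarb (2.11 at each). The H3 antibody gave none on either day, against 2.61% and 6.65% of genes. Rara and Rarg carried H3.3 at 1 or more of their starts on both days in both duplicates, whereas the Rxra and Rxrg starts had no filtered H3.3 peak in any library. Before the filter, MACS2 had listed H3.3 peaks at the first start of Rxra in 3 of 4 libraries, with enrichments of 1.79 and 2.15 at day 6 and 1.88 at day 0. At the first start of Rxrg it had done so in 3 of 4 as well, with 2.15 at day 6 and 2.02 and 2.19 at day 0.

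**Figure D5:**
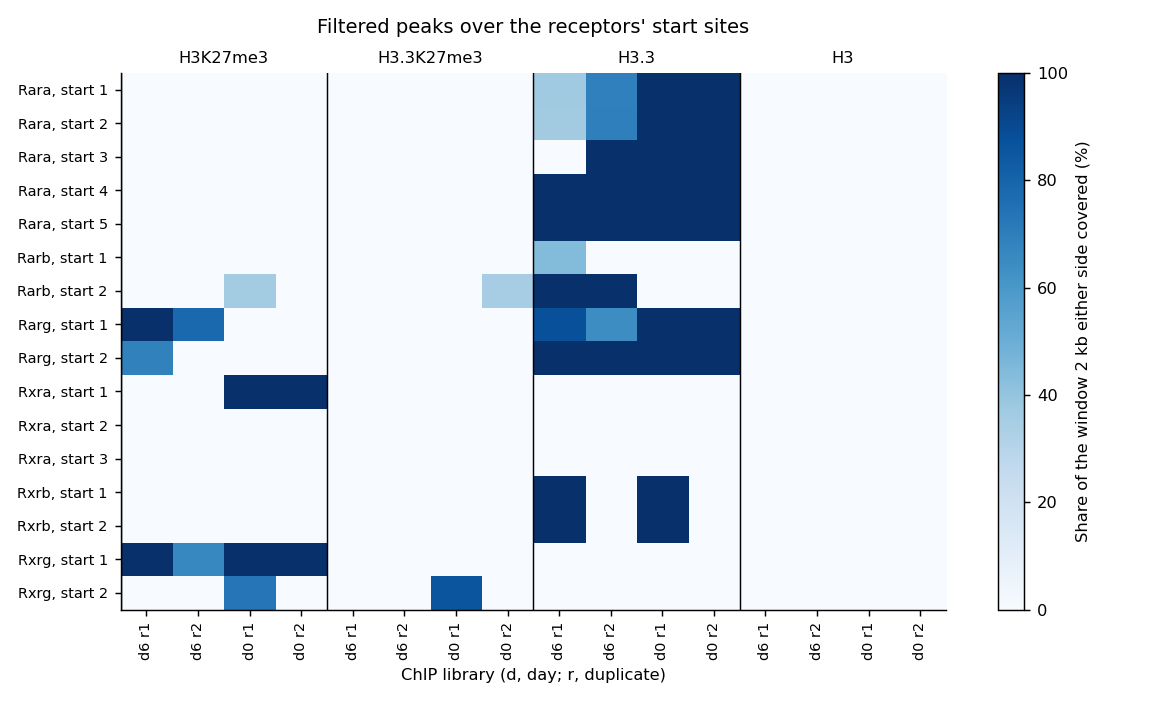
Share of the window 2 kb either side of each receptor start covered by filtered peaks in the 16 wild-type ChIP libraries (d, day; r, duplicate). Starts are numbered from the 5′ end of each gene, so Rarb start 2 is the beta2 start, and darker cells mean fuller cover.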

How the data were processed

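RNA was read from 17 libraries in 9 groups and chromatin from 16 wild-type ChIP-seq libraries with 4 antibodies, each sequenced in 3 runs. The authors aligned RNA reads with STAR 2.5.2a to mm10 and deposited HTSeq counts per gene, per the submitters' processing notes. Whether HTSeq counted by strand is not given in the sources used here. Peaks were called per library with MACS2 2.2.6 without a control at p 0.01, a minimum length of 1000 bases and a maximum gap of 5000, per the file headers. The peak files hold fold enrichment, pileup signal and −log10 p as deposited. How the authors filtered the peaks is not stated. The region tables hold the signal of each library, reads times 1 factor per library, with a log2 fold of day 0 minus day 6 and p-values by the authors. Their RNA table holds log2 changes and p-values, as deposited.

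Counts were tested with edgeR 4.0.16 (filterByExpr, TMM, quasi-likelihood), separately for 2019 and 2020, and region signal with limma 3.58.1 on log2(signal + 1), both in R 4.3.3. P-values were Benjamini-Hochberg adjusted over all genes or regions at a threshold of 0.05. Standard errors of edgeR were derived from the test statistic and are approximate, and those of limma use a spread pooled largely over all regions. CPM (counts per 1000000 after TMM scaling) were computed from deposited counts and divided by exon length for comparisons between genes. Intervals of count ratios are exact, at 95%, and cover counting error only. The range of gene counts per library is given with the results. DESeq2 1.42.0, RLE size factors, no filter, a replicate block, fits on only the groups compared and leaving out each library were alternatives; leaving out libraries for Cyp26a1 and Nr2f2 was chosen after seeing the data.

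Named are the 6 receptors, up to 4 genes of each list with the largest called changes at day 6 against day 0 in 2019, and the 3 genes most like each receptor. A gene that the rule names is not reported here. The receptors and lists were chosen with earlier results of these data known.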

Additional observations from a re-analysis of the deposited data

Results flagged for a closer look

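The day 6 change of wild type differed between the 2020 and the 2019 libraries for 3 of the 6 receptors in a fit of both years with a year-by-day term, where 33% of 14451 genes did. For Rara the change was lower in 2020 by −0.646 ± 0.121 on the log2 scale (edgeR adjusted p = 0.00203). Its levels were 99.7 and 98.8 CPM at day 6 of 2020, against 143 CPM at day 0, and 120 and 115 CPM at day 6 of 2019, against 98.2 and 110 CPM at day 0. The 2020 values were thus below their day 0 library and the 2019 values above theirs. For Rxra the difference was −0.884 ± 0.13 (edgeR adjusted p = 0.000435), with day 6 at 77.4 and 82 CPM in 2020 and at 128 and 131 CPM in 2019. Day 0 of Rxra was 32.8 CPM in 2020, against 27.8 and 28.2 CPM in 2019. For Rxrg it was −2.352 ± 0.668 (edgeR adjusted p = 0.0193), on 6 and 5 counts at day 6 of 2020 and 7 and 6 counts at day 6 of 2019. The Rxrg difference did not pass without either day 6 library of either year (edgeR adjusted p = 0.0681 and 0.0613 for 2019, 0.0524 and 0.0591 for 2020). Marker sums of other cell types also differed. Those of fibroblasts and mesenchyme were 383 to 421 CPM at day 6 and 367 CPM at day 0 in 2020, against 1200 to 1390 CPM and 19.3 to 21.4 CPM in 2019, and 7 of 8 of these markers had a lower change in 2020. Neural markers summed to 312 to 468 CPM at day 6 of 2020 and 1470 to 1690 CPM at day 6 of 2019 (6 of 8 lower). Primitive and visceral endoderm markers summed to 973 to 1120 CPM at day 6 and 90.6 CPM at day 0 in 2020, against 716 to 796 CPM and 11.4 to 11.7 CPM in 2019 (5 of 8 lower). So did the share of counts in no feature, at 11.32 to 16.78% in 2020 and 25.74 to 43.29% in 2019. Their part in the result was not tested. Day 0 of 2020 is a single library.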

How the results depend on the processing

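Of 551 values for single receptors or regions under settings that kept all libraries, 525 stayed on their side of the threshold, 15 lost the call, 11 gained one and 0 reversed. With 1 library left out, 460 of 484 stayed, 16 lost the call, 8 gained one and 0 reversed. The count of receptors called at day 6 against day 0 in 2019 (5) was 3 with DESeq2 and 3 to 5 with a library left out. The count for the knockout against wild type at day 6 (0) was 1 without a filter, 1 with DESeq2 and 0 to 2 with a library left out, and that for the knockout against wild type over the 6 days (0) was 0 to 1. H3.3K27A against the knockout at day 6 (2) gave 1 to 2 with a library left out. With only the groups compared it gave 0, against 2 at day 0, and H3.3K27A against wild type gave 1 at day 6 and 2 at day 0, where wild type is 1 library. H3.3K27me3 peaks at a start at day 0 (0 receptors) came to 1 on either single duplicate. By coding length, 3 receptors kept their rank by level in the day 3 group of 2019 and 3 in wild type, 2 in the knockout and 2 in H3.3K27A at day 6 of 2020. The causes were not tested.

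Same-numbered libraries shared only a number: their deviations correlated at −0.358 to 0.141 between RNA groups and −0.104, −0.028 and −0.011 for H3K27me3, H3.3 and H3. A replicate block ended the call of Rxrb in the knockout (edgeR adjusted p = 0.0625) and of Rxrg between years (0.0827), and gave one for Rarg between years (0.50, 0.0249). Leaving out the only wild-type library of day 0 in 2020 was not possible. Low counts limit Rarb at day 0 and Rxrg throughout.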
